A study of Mus musculus with 6 samples.

Results

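The proteasome is the protease that degrades ubiquitin-tagged proteins, and its subunit genes were examined in RNA-seq of mouse mammary tumour grafts. The members were the protein-coding genes of the deposited comparison table whose symbols are Psma to Psmg followed by a number alone. This gave 48 of 39179 listed genes. They were divided into an immune set of 5 genes, Psmb8, Psmb9, Psmb10, Psme1 and Psme2, and the other 43 subunits. The libraries came from grafts in FVB mice of cells from the MMTV-Neu model, in which a viral promoter active in mammary epithelium drives the Neu (ErbB2) oncogene. There were 3 libraries labelled WT (AXL+/+ cells) and 3 labelled AXL KO (AXL-/- cells), AXL being a receptor tyrosine kinase. Both groups carry the Neu transgene. The question of the comparison is how subunit transcripts differ with AXL present or absent in the grafted cells. The labels give no age, no AXL genotype of the host mice, and no statement on whether the grafts came from separate animals, cultures or clones. The p-values therefore measure only how these samples vary, possibly for technical reasons, and the line of cells cannot be told apart from the genotype.

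The proteasome has a barrel-shaped core of stacked rings. The outer rings consist of alpha subunits (Psma genes) and the inner rings of beta subunits (Psmb genes), of which Psmb5, Psmb6 and Psmb7 encode the subunits that cut peptide bonds. In cells exposed to interferon, and constitutively in many leukocytes, these are replaced in newly built cores by Psmb8, Psmb9 and Psmb10, which gives the immunoproteasome. It favours the release of peptides with the hydrophobic or basic ends that MHC class I molecules bind. A regulatory particle of ATPases (Psmc) and other subunits (Psmd) recognises, unfolds and feeds in the substrates, while the Psme genes encode other caps of the core: Psme1 and Psme2 form an interferon-inducible cap.

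Each library held 26541009 to 32491807 counts in genes. The chi-square per gene was 11.1 to 29.6 between replicates, which is beyond counting error, and 93.5 to 152 between libraries of different groups. Axl itself had 1906, 1761 and 1507 counts in the WT libraries and 1360, 2396 and 1767 in the AXL KO libraries, so it did not set the groups apart (edgeR adjusted p = 0.978). The counts cover the whole gene and the deleted part is not given in the labels, so the directions below are between libraries as labelled. Erbb2, which marks the tumour epithelium of this model, stood at 7190 ± 654 CPM (counts per 1000000, scaled by TMM library factors) in WT and 9203 ± 1006 CPM in AXL KO (SD, n = 3 each). Both groups thus matched their labelled tissue in this marker. Other epithelial markers did not all move with it. Krt8, Krt18 and Epcam stood at 0.74-, 0.66- and 0.69-fold in AXL KO over WT, and Cdh1 at 1.10-fold. Across the transcriptome 37.4% of 14850 tested genes passed the edgeR quasi-likelihood test at a Benjamini-Hochberg adjusted p under 0.05, 19.1% higher and 18.3% lower in AXL KO.

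Promoter windows from RefSeq (GRCm38.p6, from 250 bases before to 50 bases after a start site) were held for 40 of the 48 members. They were searched on both strands for the core of the interferon-stimulated response element (GAAA, any 2 bases, GAAA), the gamma-activated site, TTCNNNGAA, which reads the same on both strands, and the core of the antioxidant response element, TGACNNNGC. The windows of Psmb9, Psmb8 and Psme1 are shown because these genes differed between the groups. Their windows either hold a match or overlap that of another gene that was higher in AXL KO. Capitals mark the matches.
Psmb9, chr17:34187281-34187580, minus strand: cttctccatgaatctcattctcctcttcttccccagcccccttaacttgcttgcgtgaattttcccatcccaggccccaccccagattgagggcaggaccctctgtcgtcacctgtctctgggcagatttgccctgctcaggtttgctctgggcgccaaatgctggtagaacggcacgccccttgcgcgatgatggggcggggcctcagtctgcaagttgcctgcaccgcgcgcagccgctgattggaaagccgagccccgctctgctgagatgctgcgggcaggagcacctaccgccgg
Psmb8, chr17:34197945-34198244, plus strand: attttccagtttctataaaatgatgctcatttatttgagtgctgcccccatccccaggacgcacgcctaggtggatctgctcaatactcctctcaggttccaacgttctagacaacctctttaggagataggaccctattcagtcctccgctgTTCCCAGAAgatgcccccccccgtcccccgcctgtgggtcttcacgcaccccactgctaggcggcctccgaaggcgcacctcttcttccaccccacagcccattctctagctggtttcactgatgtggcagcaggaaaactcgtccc
Psme1, chr14:55578244-55578543, plus strand: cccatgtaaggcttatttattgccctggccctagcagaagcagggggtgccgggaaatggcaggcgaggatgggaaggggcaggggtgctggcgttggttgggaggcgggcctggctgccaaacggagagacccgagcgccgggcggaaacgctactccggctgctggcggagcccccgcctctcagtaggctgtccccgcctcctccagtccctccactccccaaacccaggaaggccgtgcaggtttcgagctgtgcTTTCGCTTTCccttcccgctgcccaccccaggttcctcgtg
The Psmb9 window holds none of these letters, and 275 of its bases also belong to the window of Tap1, the peptide transporter gene that is read in the opposite direction. The Psmb8 window holds 1 gamma-activated site match, which begins 97 bases before the RefSeq start site. Psme1 has 1 response element match, beginning 9 bases after the RefSeq start site. The windows of Psmb9, Psmb8 and Psme1 lie wholly within these genes as annotated in GENCODE M21. Bases before their outermost annotated starts were therefore not searched. Psmb10 and Psme2 had none of the 3 motifs in their windows. Among the 35 other subunits with a window, 4 held the response element match (Psmb3, Psmd4, Psmd9 and Psmg4), 2 the gamma-activated site match and 6 the antioxidant match, among them Psmb5, Psmb6 and Psme4. Of all 32851 windows of this length, 3.44%, 8.3% and 12.4% held the 3 motifs. A match describes letters and is not a measured site.

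All 5 genes of the immune set were higher in the AXL KO libraries, with 5 of 5 called higher by edgeR against 19.1% of all tested genes. Their median log2 fold change was 1.29, where that of all tested genes was 0.00. The changes differed in size, from 12.04-fold for Psmb9 to 1.25-fold for Psme1. At 2-fold or more, 3 of the 5 were called, the catalytic subunits, against 5.14% of all tested genes. At 8-fold or more, Psmb8 and Psmb9 were called, against 0.936%. The groups did not overlap in any of the 5, which held for 52.2% of all tested genes in either direction.

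**Figure D1:**
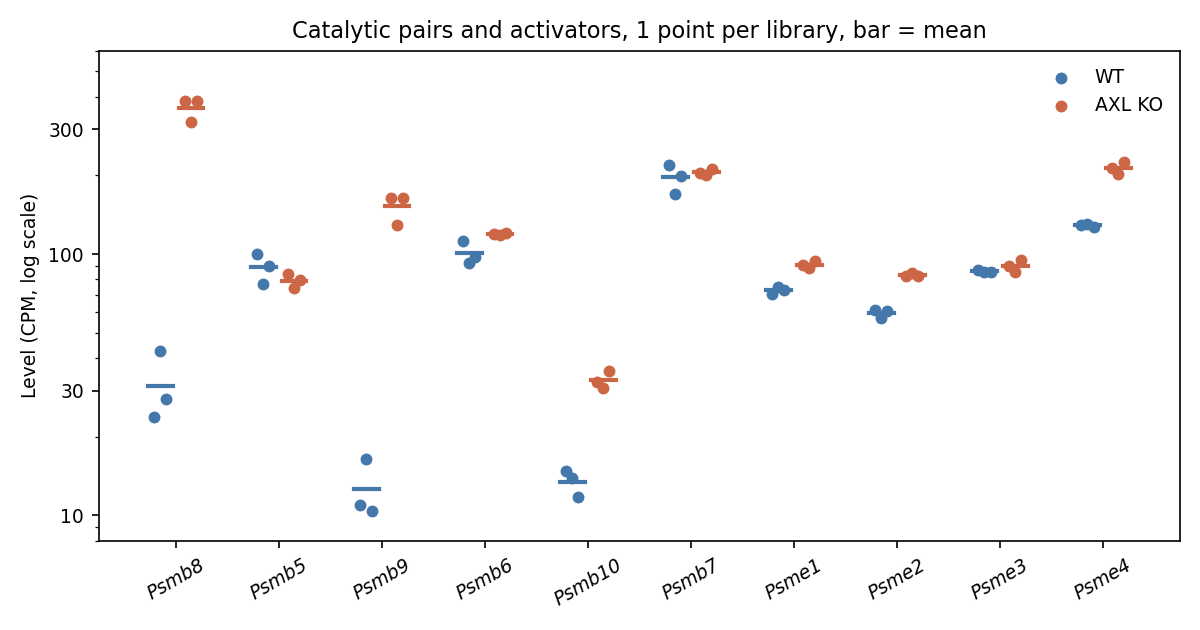
Level in CPM on a log axis of the catalytic subunits, each immune gene beside the constitutive gene whose product it replaces, and of the cap genes Psme1 to Psme4. Each point is 1 library and each bar the mean of 3 libraries. Psmb8 and Psmb9 sit far higher in every AXL KO library (lowest 320 and 129 CPM) than in any WT library (highest 42.7 and 16.5 CPM), while Psmb5, Psmb7 and Psme3 overlap between the groups.

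Psmb8 (ENSMUSG00000024338, GRCm38 chromosome 17, 34197721 to 34201454) encodes the immune form of the subunit that cuts after hydrophobic residues. It was counted at 23.7, 42.7 and 27.8 CPM in WT libraries 1 to 3 and at 385, 320 and 385 CPM in AXL KO libraries 1 to 3. The lowest AXL KO library lay far above the highest WT library, which was WT replicate 2. The log2 fold change was 3.53 ± 0.21 (SE), or 11.6-fold (edgeR adjusted p = 9.87e-06).

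Psmb9 (ENSMUSG00000096727, chromosome 17, 34181987 to 34187764) encodes the immune subunit that takes the place of the caspase-like Psmb6. It was counted at 11.0, 16.5 and 10.4 CPM in WT and at 164, 129 and 164 CPM in AXL KO. As for Psmb8, WT replicate 2 was the highest WT library and AXL KO replicate 2 the lowest AXL KO library. Its log2 fold change was 3.59 ± 0.19 (SE), 12.04-fold, with an edgeR adjusted p of 5.55e-06. Psmb9 and Tap1 share 212 bases of annotated exons on opposite strands, 5.79% of the exonic bases of Psmb9. Without a statement on strand in the counting, reads there cannot be told apart. The same holds for Psmb7, which shares 405 bases (11.8% of its exonic bases) with Nek6 on the opposite strand. Further such overlaps include Psmd13 with Sirt3 (342 bases, 10.1%), Psmc3 with Slc39a13 (215 bases, 8.25%) and Psme1 with Emc9 (14 bases, 0.634%). Psmb8 shares 498 bases (14.7%) with Gm20496 on the opposite strand, which had 9 counts over all libraries. Tap1, beside Psmb9 on the chromosome, rose 9.17-fold, from 40.3 ± 11.5 to 370 ± 58.4 CPM (SD, n = 3 each, edgeR adjusted p = 1.56e-05).

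Psmb10 (ENSMUSG00000031897, chromosome 8, 105935735 to 105938444), the immune form of the trypsin-like subunit, lies outside the MHC region. Its levels were 14.8, 13.9 and 11.8 CPM in WT and 32.4, 30.6 and 35.6 CPM in AXL KO. The increase was 2.44-fold, a log2 fold change of 1.29 ± 0.11 (SE, edgeR adjusted p = 7.61e-05). All 3 AXL KO libraries were above all WT libraries, and WT replicate 2 did not stand out.

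The cap genes Psme1 (ENSMUSG00000022216, chromosome 14, 55578123 to 55581529) and Psme2 (ENSMUSG00000079197, chromosome 14, 55587441 to 55591113) are close neighbours. Psme1 stood at 70.1, 74.8 and 73.0 CPM in WT and at 90.7, 88.7 and 94.0 CPM in AXL KO, 1.25-fold higher (log2 fold change 0.33 ± 0.07 SE, edgeR adjusted p = 0.00692). Psme2 stood at 61.4, 56.8 and 60.5 CPM in WT and at 82.6, 84.9 and 82.5 CPM in AXL KO, 1.4-fold higher (log2 fold change 0.49 ± 0.07 SE, edgeR adjusted p = 0.00111). Both groups were tight and separate, and the increases were small beside those of the catalytic genes. Psme2b, a related gene outside the symbol rule that can share reads with Psme2, had 183, 156 and 159 counts in WT and 268, 241 and 284 in AXL KO, so the split between the copies is uncertain.

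The replacement subunits were set against the constitutive ones within each library, where library scaling cancels. The log2 count ratio of Psmb8 to Psmb5 was -1.54 ± 0.63 (SD, n = 3) in WT and 2.20 ± 0.08 (SD, n = 3) in AXL KO, a 13.4-fold difference. That of Psmb9 to Psmb6 moved from -3.02 ± 0.47 to 0.34 ± 0.19, 10.3-fold, and that of Psmb10 to Psmb7 from -3.86 ± 0.24 to -2.65 ± 0.07, 2.33-fold. In all 3 pairs every AXL KO library lay above every WT library. The exact permutation test gave p = 0.1 two-sided for each of the 3 pairs, also after adjustment over the 3, which is the smallest value that 3 libraries against 3 allow.

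**Figure D2:**
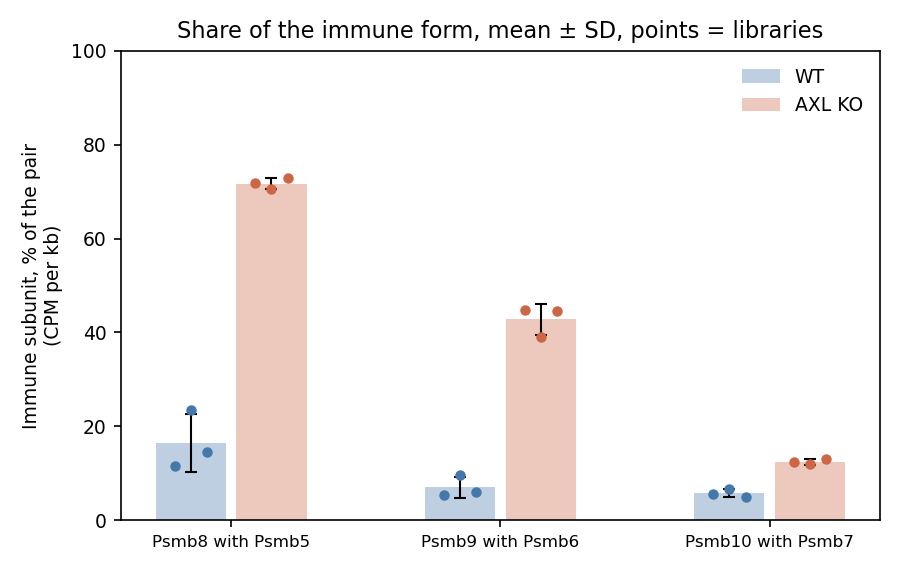
Share of the immune subunit in its pair (percent of the summed CPM per kilobase of the immune and the constitutive gene). Bars are means with SD over 3 libraries and points are libraries. Psmb8 makes up 70.5% to 72.8% of its pair in AXL KO and 11.6% to 23.4% in WT, and Psmb10 stays under 13.0% of its pair in every library.

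Per transcript length, measured on the principal transcript, Psmb8 made up 16.5% ± 6.17 (SD, n = 3) of its pair in WT and 71.7% ± 1.17 (SD, n = 3) in AXL KO. Psmb9 made up 6.97% ± 2.22 in WT and 42.8% ± 3.24 in AXL KO of its pair with Psmb6. For Psmb10 the shares were 5.77% ± 0.898 and 12.4% ± 0.557. The Psmb8 transcript was thus the more abundant of its pair in AXL KO, and Psmb9 and Psmb10 remained the less abundant of theirs. With all annotated exons as the length, the mean shares in WT and AXL KO were 8.78% and 54.9% for Psmb8. For Psmb10 they were 12.2% and 24.3%. The shares thus depend on the length used, while the fold differences of the count ratios do not. The summed level of both genes of a pair, per kilobase of the principal transcript, rose 2.63-fold for Psmb8 with Psmb5, from 118 ± 7.0 to 311 ± 28.2. For Psmb9 with Psmb6 it rose 1.94-fold, and neither pair had overlap between groups. For Psmb10 with Psmb7 it was 180 ± 21.8 and 202 ± 6.50 CPM per kilobase, and the groups overlapped. These sums depend on the length used as well. Per kilobase of all annotated exons, Psmb8 stood at 9.28 CPM in WT and 107 CPM in AXL KO, and Psmb5 at 99.1 and 87.9 CPM.

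The constitutive catalytic genes moved little. Psmb5 was at 99.9, 76.9 and 90.4 CPM in WT and 83.8, 73.9 and 79.3 CPM in AXL KO. Its groups overlapped, with a log2 fold change of -0.17 ± 0.10 (SE, edgeR adjusted p = 0.221). Psmb7 was at 220, 170 and 200 CPM in WT and 205, 201 and 211 CPM in AXL KO, with a log2 fold change of 0.07 ± 0.10 (SE, edgeR adjusted p = 0.623). Psmb6 was at 112, 92.4 and 97.3 CPM in WT and 120, 119 and 120 CPM in AXL KO. It was called higher by a narrow margin (log2 fold change 0.25 ± 0.09 SE, edgeR adjusted p = 0.0483), and 10 of 13 alternative fits did not call it. None of the 3 was called lower, by edgeR, DESeq2 or limma-voom, and none had an unadjusted edgeR p under 0.05 in that direction. Without WT replicate 2, Psmb5 was called lower at a log2 fold change of -0.27.

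Of the 43 other subunits 41 passed the count filter, and 5 of them were called higher and 3 lower by edgeR, against 19.1% and 18.3% of all tested genes. Their median log2 fold change was 0.03, and 36 of the 41 (87.8%) lay within 1.25-fold, against 56.3% of all tested genes. That background was not matched for level and includes genes with far fewer counts. It cannot tell whether the subunits differed less than other genes of like level. Non-overlapping groups were found in 8 of the 41 with AXL KO higher and in 5 with AXL KO lower, where the background over all tested genes was 26.9% and 25.2%. Without WT replicate 2, 8 were called lower in place of 3, adding Psmb5, Psma3, Psmc2, Psmd6 and Psmg3. Leaving out WT replicate 3 left 2 called higher, and leaving out AXL KO replicate 3 left 3.

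**Figure D3:**
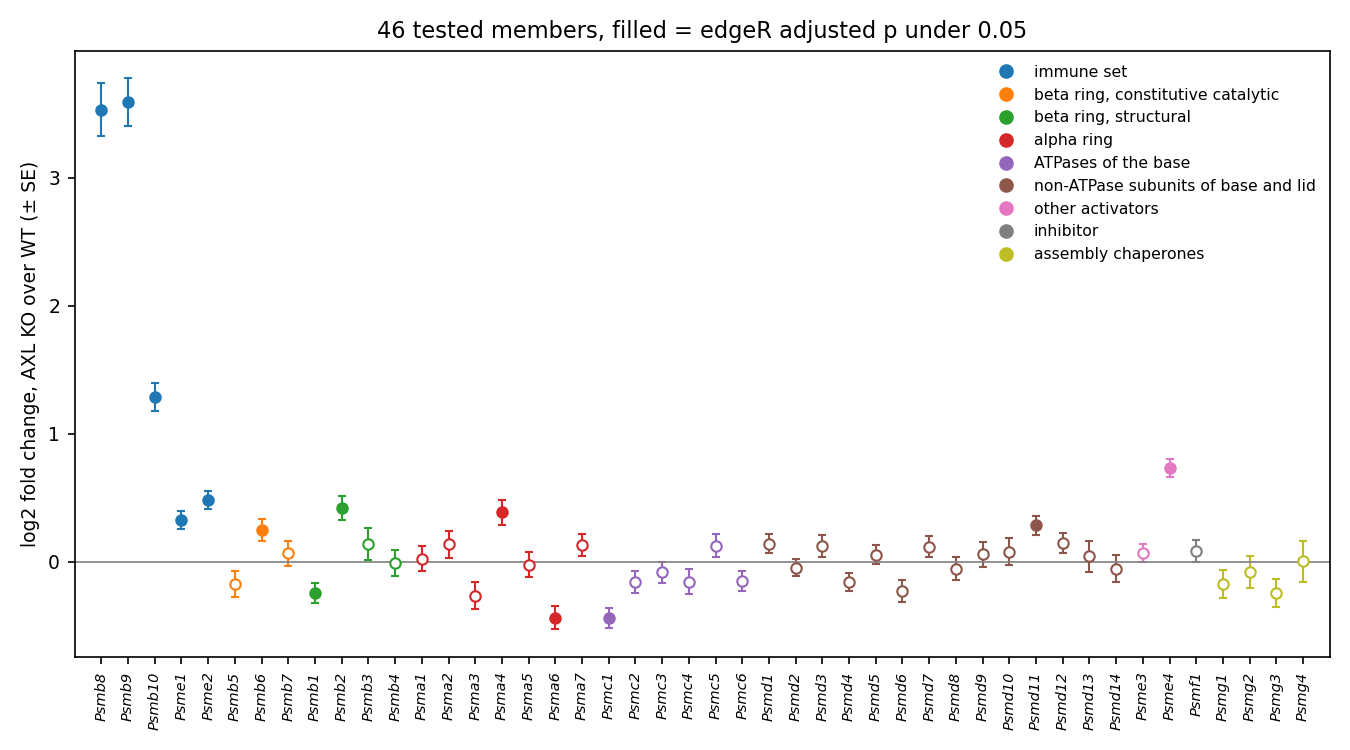
log2 fold change of AXL KO over WT with its SE for the 46 tested members, coloured by role. Filled points passed the edgeR test and open points did not. Apart from the immune set, Psme4 at 0.73 is the one point beyond 0.5, and the lowest points are Psma6 and Psmc1 at -0.44.

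Psme4 (ENSMUSG00000040850, chromosome 11, 30771726 to 30880361), the large single-chain cap known for degradation of acetylated histones, had the largest change among the other subunits. It stood at 129, 130 and 127 CPM in WT and at 214, 203 and 226 CPM in AXL KO. WT libraries were nearly equal and all AXL KO libraries lay above them. The increase was 1.66-fold, a log2 fold change of 0.73 ± 0.07 (SE, edgeR adjusted p = 0.000122). It exceeded that of Psme1 and Psme2 in size, and a test of that difference was not run. Psme3, the nuclear cap related to Psme1 and Psme2, was at 86.9, 85.2 and 85.6 CPM in WT and 90.4, 85.3 and 94.6 CPM in AXL KO, and its groups overlapped (log2 fold change 0.07 ± 0.07 SE, edgeR adjusted p = 0.476). Psmf1, an inhibitor that binds the core, had a log2 fold change of 0.09 ± 0.09 (SE, edgeR adjusted p = 0.454).

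In the alpha rings, which gate the entry to the core, 1 of 7 genes rose and 1 fell, where 19.1% and 18.3% of all tested genes did so. Psma4 was at 133, 103 and 113 CPM in WT and at 151, 153 and 154 CPM in AXL KO, 1.31-fold higher (edgeR adjusted p = 0.0135). Psma6 went the other way, from 242, 198 and 239 CPM to 173, 162 and 166 CPM, a log2 fold change of -0.44 ± 0.09 (SE, edgeR adjusted p = 0.00577). The call of Psma4 was lost without WT replicate 3. The other 5 genes lay between -0.26 (Psma3) and 0.14 (Psma2) on the log2 scale.

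Among the 4 structural beta genes, whose products have no cutting site, Psmb2 rose and Psmb1 fell, 2 of 4 against 37.4% of all tested genes. Psmb2 was at 64.2, 54.7 and 63.8 CPM in WT and at 83.0, 75.2 and 86.4 CPM in AXL KO, 1.34-fold higher (edgeR adjusted p = 0.00749). Psmb1 was at 220, 193 and 225 CPM in WT and at 181, 183 and 174 CPM in AXL KO (log2 fold change -0.24 ± 0.08 SE, edgeR adjusted p = 0.0387). The Psmb1 call was lost in 7 of 13 alternative fits. Psmb3 and Psmb4 lay at 0.14 ± 0.12 and -0.01 ± 0.10 (SE) on the log2 scale.

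In the regulatory particle, 1 of 6 ATPase genes and 1 of 14 non-ATPase genes passed the test, against 37.4% of all tested genes. The ATPase gene Psmc1 fell from 178, 152 and 173 CPM to 127, 121 and 124 CPM, a log2 fold change of -0.44 ± 0.08 (SE, edgeR adjusted p = 0.00317). Every AXL KO library was below every WT library. Psmd11, a lid subunit, rose from 75.0, 72.6 and 74.3 CPM to 88.3, 85.7 and 96.3 CPM, 1.22-fold (edgeR adjusted p = 0.0165), a call lost when WT replicate 3 or AXL KO replicate 3 was left out. The other ATPases ranged from -0.16 to 0.12 in log2 fold change. Psmd14, which removes ubiquitin chains from substrates, was at -0.05 ± 0.11, and the ubiquitin receptor Psmd4 at -0.16 ± 0.07 (SE). All 14 Psmd genes lay within 1.25-fold, from -0.23 for Psmd6 to 0.28 for Psmd11. Psmd1, Psmd7 and Psmd12 (higher in AXL KO) and Psmd4 and Psmd6 (lower) had groups that did not overlap but were not called. Their edgeR adjusted p-values were 0.0658 to 0.280. With Psmd11, 4 of the 14 had groups that did not overlap with AXL KO higher, and 2 with AXL KO lower. Over all tested genes these shares were 26.9% and 25.2%.

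The 4 assembly chaperones Psmg1 to Psmg4, which help to build the rings, gave 0 calls in edgeR, against 37.4% of all tested genes. They also gave 0 calls in DESeq2 and limma-voom, and 0 had an unadjusted edgeR p under 0.05. Their log2 fold changes ran from -0.24 ± 0.11 for Psmg3 to 0.00 ± 0.16 (SE) for Psmg4. Psmg4 was the lowest of the tested members, with 150 to 195 counts per library, and had the largest SE of the 33 tested members without a call. The tissue-restricted genes were too low to test. Psma8, the testis form of an alpha subunit, had 1, 1 and 1 counts in WT and 2, 5 and 2 in AXL KO. Psmb11, the catalytic subunit of the thymus cortex, had 0, 1 and 3 counts in WT and 8, 7 and 7 in AXL KO.

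By level per kilobase of the principal transcript, the order of the members was led by Psma7 in both groups, at 283 ± 26.5 CPM per kilobase in WT and 311 ± 13.1 in AXL KO (SD, n = 3 each). Psmb8 stood 40th of 48 in WT, at 19.3 ± 6.12 CPM per kilobase, and 2nd in AXL KO, at 223 ± 23.2. Psmb9 moved from place 46 to place 10, at 9.34 ± 2.48 and 113 ± 14.97 CPM per kilobase. Psmb10, at 10.3 ± 1.20 and 25.1 ± 1.94 CPM per kilobase, moved from place 45 to place 40. By this length, Psmb9 and Psmb10 did not differ beyond their spread in WT, and neither did Psmb8 from Psme4 at 19.8 ± 0.227. This depends on the length. Per kilobase of all annotated exons, WT Psmb9 and Psmb10 stood at 3.45 and 7.90 CPM. Psmb8 and Psme4 then stood at 9.28 and 15.4 CPM in WT. Psme1 and Psme2 already stood at 65.3 ± 2.16 and 61.9 ± 2.52 CPM per kilobase in WT, near the median of the Psmd genes at 63.5. These places depend on the length used. With all annotated exons as the length, Psma6 led in both groups and Psma7 stood in place 5 in WT and 3 in AXL KO. Psmb8 then moved from place 41 to 2, Psmb9 from 46 to 22 and Psmb10 from 42 to 37.

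**Figure D4:**
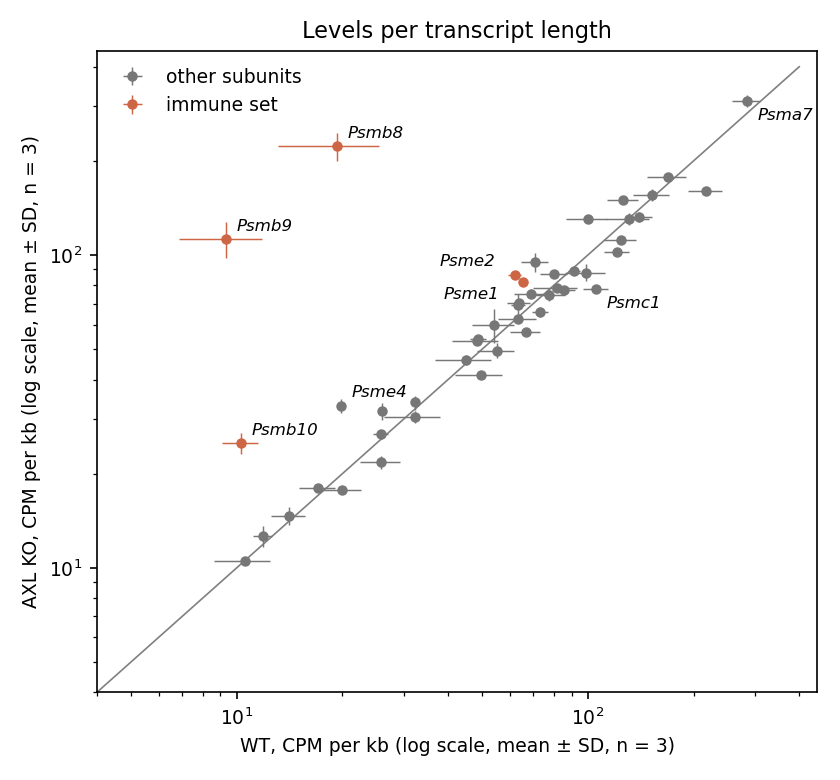
Level of each tested member per kilobase of its principal transcript, WT on the horizontal and AXL KO on the vertical axis, both log scales, with means and SD of 3 libraries; the line marks equal levels. Grey points (other subunits) follow the line from about Psmg4 to Psma7, and Psmb8, Psmb9 and Psmb10 lie far above it.

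The other subunits varied together among the WT libraries. WT replicate 2 was the lowest WT library for 37 of the 41 tested, with a median log2 deviation of -0.15 from the WT mean, and WT replicate 1 was the highest for 33 of them, with a median of 0.13. Summed over the 43 genes, the level was 5282, 4426 and 5004 CPM in WT replicates 1 to 3 and 4974, 4864 and 4958 CPM in AXL KO replicates 1 to 3. The AXL KO sums all lie within the WT range. For the immune set the sums were 181, 205 and 183 CPM in WT and 755, 653 and 761 CPM in AXL KO. The mean log2 CPM of the immune set minus that of the other tested subunits was -1.89, -1.36 and -1.82 in WT and 0.17, 0.08 and 0.21 in AXL KO, a difference of 1.84 between the group means. In this difference WT replicate 2 was the WT library nearest to AXL KO, through higher Psmb8 and Psmb9 and through lower levels of the other subunits. In the sum over the other subunits alone it was not the nearest, as its 4426 CPM lay below every AXL KO library.

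Genes that work with the proteasome were counted from a separate list of 20, of which 5 rose and 0 fell by edgeR (against 19.1% and 18.3% of all tested genes), and 0 fell by DESeq2, limma-voom or an unadjusted edgeR p under 0.05. Ddi2, a protease that activates the transcription factor encoded by Nfe2l1, rose 1.55-fold, from 134 ± 15.1 to 208 ± 9.29 CPM (SD, n = 3 each, edgeR adjusted p = 0.00112). AI314180, named Ecpas in the annotation, encodes a scaffold that binds the proteasome, and it rose 1.43-fold (edgeR adjusted p = 0.00178). The ubiquitin shuttle gene Rad23b rose 1.23-fold, and the unfolding ATPase gene Vcp rose 1.25-fold. Nfe2l1, whose product drives the subunit genes when the proteasome is impaired, had a log2 fold change of 0.18 ± 0.10, and the related Nfe2l2 -0.07 ± 0.07 (SE). Pomp, the chaperone needed to complete the core, was at 225, 181 and 210 CPM in WT and 180, 200 and 164 CPM in AXL KO, with overlapping groups (log2 fold change -0.18 ± 0.10 SE, edgeR adjusted p = 0.207).

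Of 12 genes that handle class I peptides after the proteasome or induce the immune subunits, 9 rose and 0 fell in edgeR, DESeq2 and limma-voom alike (against 19.1% and 18.3% of all tested genes in edgeR), with 0 lower at an unadjusted edgeR p under 0.05. Nlrc5, the activator of class I genes, rose 20.2-fold. Irf1, the transcription factor that drives Psmb9 and Tap1, went from 33.4, 36.2 and 32.9 CPM to 83.8, 80.7 and 82.1 CPM, 2.41-fold. B2m, the class I light chain, rose 12.3-fold and Erap1, which trims peptides in the endoplasmic reticulum, 2.48-fold. The edgeR adjusted p-values of these 4 genes and Tap1 were 4.42e-05 or lower. Calr, Canx and Pdia3, folding helpers with many other clients, were not called, with log2 fold changes of -0.04, 0.10 and -0.16.

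Leukocytes contain immune subunits without induction, and their markers differed between the same libraries. In a bulk library, more cells of a type and more RNA per cell cannot be told apart. Of 24 leukocyte markers 21 were tested, and 16 rose, against 19.1% of all tested genes. Summed over the 24, the level was 289 to 341 CPM in WT and 353 to 461 CPM in AXL KO, and Ptprc, carried by nearly all leukocytes, rose 1.86-fold, from 24.0 ± 0.591 to 44.7 ± 6.53 CPM (edgeR adjusted p = 0.000418). The 5 T cell markers summed to 3.27 to 5.91 CPM in WT and 14.5 to 17.1 CPM in AXL KO, the 5 NK and cytotoxic markers to 1.62 to 3.45 and 20.9 to 31.2 CPM, and the 4 dendritic markers to 9.35 to 11.2 and 19.2 to 23.5 CPM. The summed level of the 4 macrophage markers overlapped, at 176 to 222 and 160 to 245 CPM. Of the 4, Emr1 alone lay higher in every AXL KO library than in any WT library, which held for 26.9% of all tested genes. Of 5 tumour epithelium markers Erbb2 rose and Krt8, Krt18 and Epcam fell, where 19.1% and 18.3% of all tested genes did so. All 3 endothelial markers fell, against the same 18.3%. Each of 3 fibroblast markers overlapped between the groups. The 3 B cell markers were at or near 0, with Ms4a1 at 0 counts in at least 1 library. AXL KO replicate 2, which had the lowest Psmb8 and Psmb9 of its group, also had the lowest T cell and NK sums of its group, at 14.5 and 20.9 CPM. Its sum over all 24 leukocyte markers was the highest of the 6 libraries, of which the macrophage markers made up 245 of 461 CPM. Its sums over the 3 general leukocyte markers (Ptprc, Coro1a and Laptm5) and the 4 dendritic markers, 157 and 23.5 CPM, were also the highest of the 6. The part of these cells in the levels of the immune subunits was not tested.

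The authors' deposited table, which comes from their own test, called the same members. It gave an adjusted p under 0.05 to all 5 genes of the immune set and to 8 other subunits, the same 8 as here, where 33.4% of all genes with an adjusted p passed. In the authors' deposited table, turned round to AXL KO over WT, the log2 fold change was 3.47 for Psmb8, 3.53 for Psmb9, 1.27 for Psmb10, 0.32 for Psme1, 0.48 for Psme2 and 0.73 for Psme4.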

How the data were processed

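Total RNA of 6 grafts was purified with Trizol and columns and sequenced, per the labels' protocols. CASAVA 1.8, TopHat2 2.0.10, HTSeq 0.5.3, DESeq2 1.4.5 and the build GRCm38 are named in the submitters' processing notes. Strand use and other settings were not given in the sources used here. For each library the authors deposited raw counts for 39179 genes and 5 rows that name no gene, which were left out (of each file's total, 4.41% to 6.88% was assigned to no gene, 0.717% to 1.09% was ambiguous and 25.7% to 29.0% was not aligned uniquely). The authors' deposited table holds signal columns (counts divided by 1 factor per library), their log2 fold changes, a score (the test statistic) and p-values. It was described and not retested.

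Genes passing filterByExpr (minimum count 10, minimum total 15), 14850 of 21716 with any count, were tested with the quasi-likelihood test of edgeR 4.0.16 (R 4.3.3, TMM factors 0.980 to 1.02, group as the only term, Benjamini-Hochberg over all tested genes, threshold 0.05). Standard errors are the log2 fold change over the root of its F statistic. CPM are scaled by TMM. Levels per kilobase use the longest principal transcript of GENCODE M21 (GRCm38). The use of all annotated exons in its place was chosen after seeing the data. Ratios were tested with SciPy 1.17.1. Log2 CPM used a prior count of 2. As alternatives, scaling by upper quartiles or by size factors, limma-voom (3.58.1), DESeq2 1.42.0, other filters and thresholds, a replicate block, and each library left out were tried. The steps were tested on simulated counts. Members and lists were chosen with earlier results of these data known. Values are given for the immune set, its constitutive counterparts, the caps, the tissue-restricted genes, up to 6 called subunits in each direction, and up to 6 called genes of each partner list with Pomp, Nfe2l1, Nfe2l2, Tap1 and Irf1. Other genes were named after their values were seen, and some genes of the lists are counted but not reported here by name. A comparison of protein sequences was planned and not run.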

Additional observations from a re-analysis of the deposited data

How the results depend on the processing

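The 5 immune set genes kept their direction and call in all 13 alternative fits, as did Psme4, Psmb2, Psma6 and Psmc1. Leaving out 1 library at a time gave 5 immune set genes higher in each fit, 2 to 5 other subunits higher, 2 to 8 lower, 4 to 6 partner genes higher, 2000 to 2846 genes of all higher and 1733 to 2828 lower, the 1733 without AXL KO replicate 3. The difference between the set means was then 1.74 to 2.004, and the log2 ratio differences 3.47 to 4.08 for Psmb8/Psmb5, 3.20 to 3.63 for Psmb9/Psmb6 and 1.11 to 1.34 for Psmb10/Psmb7. With the median over members in place of the mean, the set difference was 1.54. At 2-fold or more, 3 immune set genes, 0 other subunits in either direction, 0 partner genes, 764 genes higher and 716 lower were called. At an adjusted p under 0.01 (edgeR) these were 2 other subunits and 3 partner genes higher, 1610 genes higher and 1464 lower. The cause was not tested, beyond fewer libraries or a stricter limit.

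Members near 0 changed sign. Without 1 library, log2 fold changes ranged from -0.055 to 0.11 for Psma1, -0.11 to 0.069 for Psma5, -0.089 to 0.11 for Psmb4, -0.026 to 0.15 for Psmb7, -0.11 to 0.036 for Psmd8, -0.0090 to 0.15 for Psmd10, -0.066 to 0.19 for Psmd13, -0.16 to 0.018 for Psmd14, -0.21 to 0.042 for Psmg2 and -0.070 to 0.16 for Psmg4. Psmb4 was at 0.0016 with limma-voom, 0.00089 with no filter and 0.0010 with the replicate block. Psmg4 was at -0.0013 with DESeq2 size factors, -0.019 with upper-quartile factors, -0.00038 with DESeq2 and -0.0034 when genes under a mean log2 CPM of 2 were dropped.

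The groups share replicate numbers. The deviations of same-numbered libraries from their group means correlated at -0.06, -0.13 and 0.09 over genes. Those of differently numbered libraries lay between -0.21 and 0.22. With so few libraries, these values cannot decide whether same-numbered libraries were handled together. With the replicate block 5 immune set genes and 4 other subunits were higher and 2 lower, with 2458 genes of all higher and 2373 lower. Psmb6 and Psmb1 were not called. The log2 ratios within replicate numbers differed by 3.74, 3.36 and 1.22, each with an exact sign-flip p of 0.25, the smallest that 3 pairs allow.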
